A study of Homo sapiens with 20 samples.

Results

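The genes described here belong to families of cancer-testis antigens, chosen by symbol. They carry the stems MAGEA, MAGEB, MAGEC, CSAG, GAGE, PAGE, XAGE, SSX, CT45A or CTAG followed by a digit, or are PRAME, and they had 5 or more expected counts summed over all 20 libraries. Of 60719 genes, 86 carried such a symbol and 64 reached the threshold. The stem SPANX was also searched, but in these symbols a letter follows it, so none was taken. SSX2 with 5.2 counts and GAGE12H with 5.43 counts lay just inside the threshold, while MAGEB16 and XAGE3 with 4 counts each lay just outside. SSX2IP entered through its symbol only. It encodes a binding partner of SSX2 that is expressed in many tissues and is no cancer-testis antigen, so it is described apart and 63 genes remained without it.

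RNA sequencing had been performed on WT Jurkat cells, which derive from a T cell leukemia, and on JinB8, a Jurkat-derived CD47- line, with 10 libraries from each. Cells were left untreated, plated on coated anti-CD3 plus anti-CD28 antibodies (CD3+CD28, with anti-CD28 at 4 μg/mL), given thrombospondin-1 (TSP1, 1 μg/mL, a secreted ligand of CD47) or given both. Untreated cells were sequenced at 1 h, and each of the other treatments at 1, 3 and 6 h. Each condition was sequenced once per line, so the 10 libraries of a line spanned its treatments and times, p-values measured the spread between those libraries, and any difference between the lines cannot be told apart from other differences between a single mutant line and its parent.

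Total expected counts ranged from about 20483600 to 31737600 in WT and from about 16107900 to 28525500 in CD47- libraries. CD47 mRNA ranged from 253 to 372 CPM (counts scaled to a common library size with TMM factors) in WT and from 124 to 165 CPM in CD47- cells, and the log2 fold change was -1.10 ± 0.08 (SE). For the protein, the authors reported from flow cytometry that the mutant has no CD47 on its surface. All 12 T cell markers were tested, and 6 were higher in CD47- cells, 3 lower and 3 not called (19.8% higher and 20.6% lower over all genes tested), with CD28 going from 45.1 to 230.0 CPM, TRAC from 185 to 21.8 CPM and CD3D, not called, from 358 to 390 CPM. Of 14 markers of other cell types 6 passed the filter, of which 3 were higher (PECAM1, COL1A1 and KRT8), 1 was lower (CD79A, from 42.2 to 6.75 CPM) and 2 were not called, beside the same shares of all genes. PECAM1 went from 46.7 to 110.0 CPM, while COL1A2, a partner of COL1A1 that failed the filter, had 271 counts in WT and 69 in CD47- cells, and KRT18, the partner of KRT8, was not called. The CD47- library with CD3+CD28 and TSP1 at 3 h had the fewest counts and the largest TMM factor, 1.20, and it was the lowest of its line for several genes below. Without it, the same 17 and 1 genes as below were called between the lines.

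Cancer-testis genes are normally transcribed in male germ cells, and some in placenta, while other adult tissues keep them silent, largely through methylation of CG dinucleotides in their promoters. Many tumors transcribe them again, and peptides from MAGE, GAGE, SSX, PRAME and CTAG proteins can be shown by MHC class I molecules to cytotoxic T cells. Most lie on the X chromosome in clusters of near-identical copies. Proteins of the MAGE families bind RING-type ubiquitin ligases, PRAME is a leucine-rich repeat protein of ubiquitin ligase complexes that is known from melanoma and leukemia, and SSX proteins are transcriptional corepressors.

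Together, the 63 genes took a mean of 0.00653% of all counts in WT libraries (SD 0.000327, n = 10) and 0.0594% in CD47- libraries (SD 0.00301, n = 10). The lowest CD47- library, at 0.0527%, was above the highest WT library, at 0.00698%. Of the 64 genes, 62 lie on the X chromosome in the GENCODE v44 annotation of GRCh38, PRAME lies on chromosome 22 and SSX2IP on chromosome 1. Of the 12 tested MAGEA and CSAG genes, 11 lay within chrX:151912495-152769716 with no other tested gene between them, and MAGEA9B lay apart from these. Within it, the gene pairs CSAG1 and MAGEA12, CSAG2 and MAGEA2B, and MAGEA2 and CSAG3 faced away from each other, with starts 22, 37 and 37 bases apart. Of the 503 other genes tested on the X chromosome, 74 were higher in CD47- cells (14.7%) and 185 lower (36.8%).

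The promoters of 5 MAGE genes that were higher in CD47- cells, of both the MAGEA and MAGEB families, follow, with that of PRAME as the gene outside the X chromosome. Each runs from 250 bases before to 50 bases after a RefSeq start (GRCh38.p14), on the gene's own strand. The window nearest to the start of the leading isoform was taken: MAGEA9B at chrX:149587410-149587709 (minus strand), MAGEA12 at chrX:152733507-152733806 (plus), MAGEA2 at chrX:152753835-152754134 (minus), MAGEA4 at chrX:151915987-151916286 (plus), MAGEB1 at chrX:30246896-30247195 (plus) and PRAME at chr22:22559216-22559515 (minus). Capitals mark the letters CCGGATGTG, a run read off these promoters after they were compared.
MAGEA9B: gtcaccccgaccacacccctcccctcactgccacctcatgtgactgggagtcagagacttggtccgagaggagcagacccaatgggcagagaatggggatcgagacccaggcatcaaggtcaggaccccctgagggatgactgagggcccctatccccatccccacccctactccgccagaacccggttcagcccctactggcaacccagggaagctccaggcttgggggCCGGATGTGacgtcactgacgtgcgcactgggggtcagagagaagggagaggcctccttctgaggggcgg
MAGEA12: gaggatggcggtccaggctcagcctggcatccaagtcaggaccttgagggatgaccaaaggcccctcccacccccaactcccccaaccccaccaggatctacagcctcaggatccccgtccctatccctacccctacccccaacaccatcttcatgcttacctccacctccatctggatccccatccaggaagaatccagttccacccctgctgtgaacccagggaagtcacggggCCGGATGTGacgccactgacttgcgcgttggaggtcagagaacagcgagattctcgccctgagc
MAGEA2: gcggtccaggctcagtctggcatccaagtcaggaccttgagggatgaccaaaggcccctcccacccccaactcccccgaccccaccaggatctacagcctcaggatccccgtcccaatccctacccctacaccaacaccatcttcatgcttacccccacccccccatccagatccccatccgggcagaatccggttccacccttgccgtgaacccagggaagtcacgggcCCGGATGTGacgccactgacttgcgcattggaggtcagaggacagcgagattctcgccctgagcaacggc
MAGEA4: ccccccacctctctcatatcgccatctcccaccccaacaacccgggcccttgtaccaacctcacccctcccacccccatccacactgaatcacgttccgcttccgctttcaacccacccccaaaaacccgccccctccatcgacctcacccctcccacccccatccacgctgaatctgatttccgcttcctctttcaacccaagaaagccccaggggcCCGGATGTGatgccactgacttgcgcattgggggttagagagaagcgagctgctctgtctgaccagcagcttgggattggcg
MAGEB1: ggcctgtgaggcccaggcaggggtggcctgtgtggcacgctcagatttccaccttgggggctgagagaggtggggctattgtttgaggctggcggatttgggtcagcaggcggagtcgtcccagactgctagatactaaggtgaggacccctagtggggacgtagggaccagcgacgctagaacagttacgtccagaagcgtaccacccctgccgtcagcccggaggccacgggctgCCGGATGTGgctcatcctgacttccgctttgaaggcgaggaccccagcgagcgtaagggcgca
PRAME: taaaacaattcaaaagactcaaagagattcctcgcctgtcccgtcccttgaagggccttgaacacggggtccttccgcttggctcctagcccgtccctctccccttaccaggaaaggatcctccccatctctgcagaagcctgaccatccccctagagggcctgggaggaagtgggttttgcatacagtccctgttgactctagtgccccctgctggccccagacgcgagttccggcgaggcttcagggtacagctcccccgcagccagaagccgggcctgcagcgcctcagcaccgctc

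In the 5 MAGE promoters the run began 20 bases before the start in MAGEA9B, 14 in MAGEA12, 20 in MAGEA2, 32 in MAGEA4 and 13 in MAGEB1, and the PRAME window did not hold it. RefSeq promoters were matched for 47 of the 64 genes. The run was present on either strand in 13 of the 47 (27.7%) and in 0.339% of 35116 promoters of the same length. Among the 17 genes called higher in CD47- cells, 14 had a promoter in the table and 9 of these held it: CSAG1, CSAG3, MAGEA12, MAGEA2, MAGEA2B, MAGEA4, MAGEA9B, MAGEB1 and MAGEB2. MAGEA9, MAGEA11, MAGEC1 and MAGEC2 held it too and failed the filter. These promoters are not independent, since copies and divergent neighbors share sequence. The 13 also include the 5 MAGE promoters from which the run was read, so the gap to all promoters tests nothing. The shorter letters CGGAA were found in 17 of the 47 (36.2%) and in 34.9% of all promoters. The windows held a median of 13 CG dinucleotides, against 14 over all promoters.

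The lines were compared to ask which cancer-testis genes each expressed. A gene was called detected throughout a line at 10 or more counts in each of its 10 libraries, and at the floor where no library exceeded 3 counts. WT cells had 8 genes detected throughout: MAGEA2, MAGEA4, MAGEA9B, MAGEA12, CSAG1, PAGE5, PRAME and SSX2IP. CD47- cells had the same 8 and 10 more, namely MAGEA2B, MAGEA3, MAGEA6, MAGEA10, CSAG2, CSAG3, CSAG4, MAGEB1, MAGEB2 and MAGEB6. No gene was detected throughout WT cells alone. Among the 10, MAGEA2B, MAGEA3, MAGEA6, CSAG2 and CSAG3 have close copies, and the division of counts between copies is uncertain. Summed, MAGEA2 and MAGEA2B had at least 45 counts in every WT library. MAGEA3 and MAGEA6 together had at least 19, and CSAG2 and CSAG3 together at least 14. As sums, these copies were thus detected throughout both lines. At the floor were 21 genes in WT, 15 in CD47- and 9 in both. In single libraries, between 19 and 28 of the 63 genes exceeded 3 counts in WT and between 28 and 38 in CD47- cells. Whether a low level came from few cells or from little RNA in each cell cannot be told apart in bulk RNA.

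**Figure D1:**
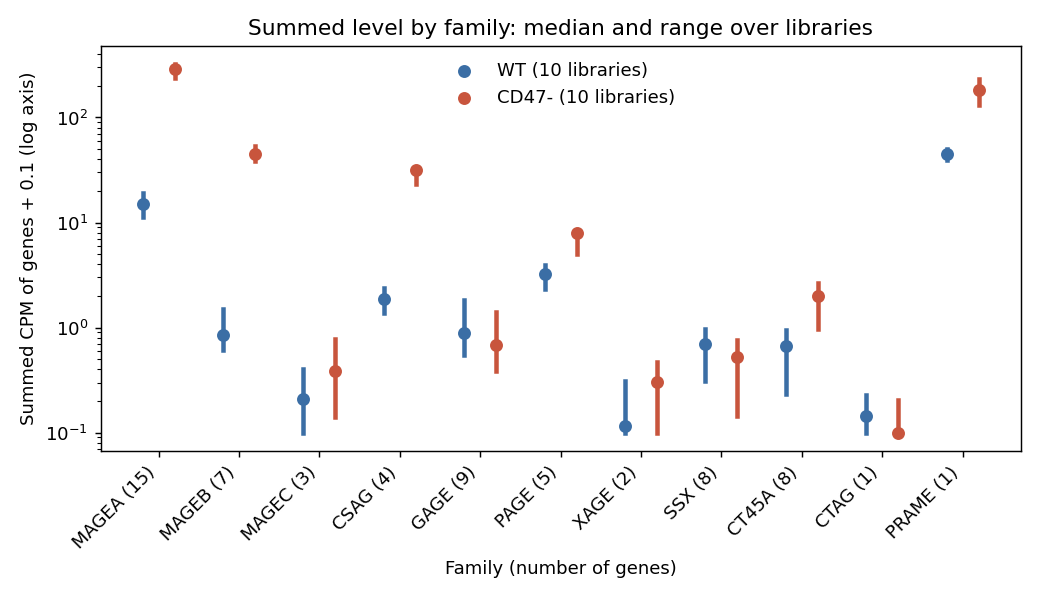
Summed CPM of the genes of each family (vertical log axis, 0.1 added) in WT and CD47- cells, with the number of genes in brackets and SSX2IP left out; points are medians and bars the range over 10 libraries. The MAGEA, MAGEB, CSAG, PAGE, CT45A and PRAME ranges of CD47- cells lie above those of WT, and the GAGE, SSX, MAGEC, XAGE and CTAG ranges overlap.

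Of the 64 genes, 19 passed the low-count filter and were tested with edgeR's quasi-likelihood test over 16327 genes, with Benjamini-Hochberg adjustment. CD47- cells were higher for 17 of the 19, against 19.8% of all genes tested, and lower for 1, SSX2IP, against 20.6%. MAGEB18 was not called. A gene could pass the filter through CD47- libraries alone, which fixes the direction of a difference, and 11 of the 19 reached the filter level in fewer than 10 WT libraries. The 8 that reached it in all 10 WT libraries were the genes detected throughout WT cells, of which 7 were higher in CD47- cells and SSX2IP was lower. The median log2 fold change was 4.14 over the 18 tested genes other than SSX2IP and -0.01 over all genes tested. Because the 18 include those 11, whose direction the filter could fix, no conclusion is drawn from that gap. Among the 7, log2 fold changes ran from 1.56 in PAGE5 to 6.10 in MAGEA9B. Of the 19 genes, 16 were higher in CD47- cells without overlap of the CPM ranges of the lines, against 6.01% of all tested genes. MAGEA6 was the only gene called higher whose ranges overlapped. The 16 include the 7, but also genes that the filter could admit through CD47- libraries alone.

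**Figure D2:**
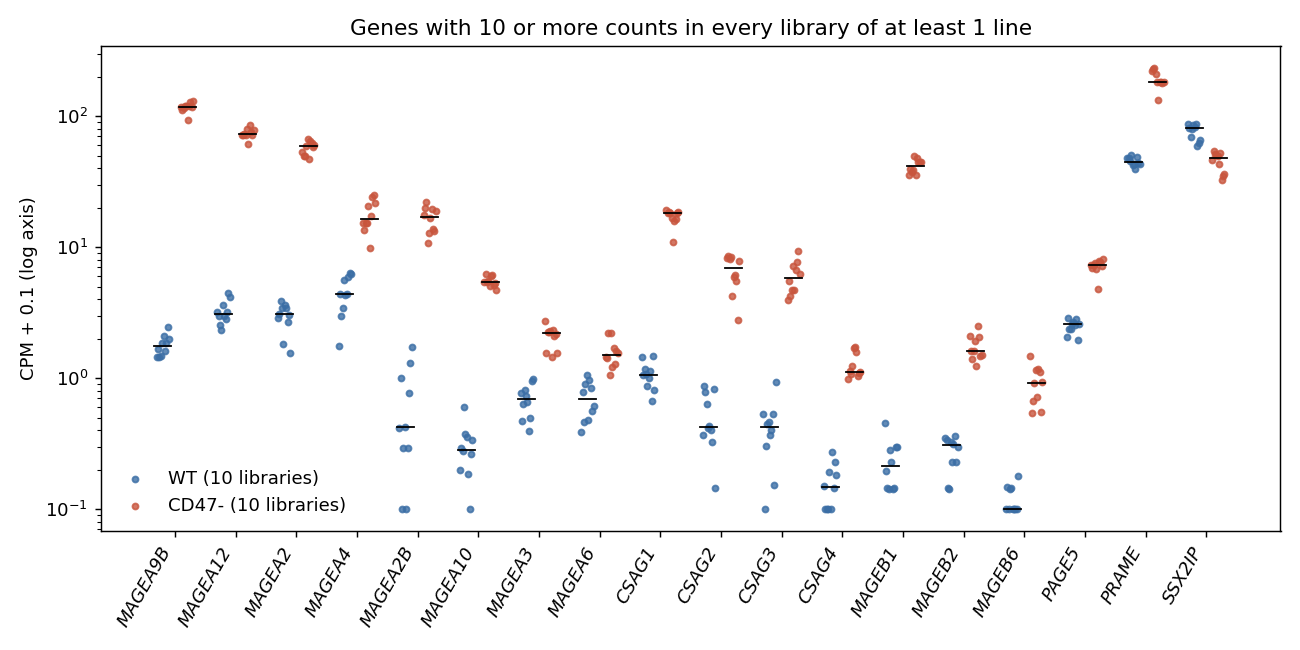
CPM in each of 10 libraries per line (points, log axis, 0.1 added) with the median (line) for the 18 genes detected throughout at least 1 line, ordered by family. Only SSX2IP sits higher in WT cells, and the points of the lines touch in MAGEA6.

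The MAGEA family held most of the difference. Its 15 genes summed to a mean of 14.9 CPM in WT (SD 2.26, n = 10) against 294 in CD47- cells (SD 25.3, n = 10), a ratio of 19.7, and all 8 tested genes were called higher. MAGEA9B ranged from 1.34 to 2.35 CPM in WT with a median of 1.67. In CD47- cells it ranged from 93.0 to 131.5 CPM with a median of 118.4. The lines were thus far apart in every library, with a 69.4-fold ratio of means. The log2 fold change was 6.10 ± 0.11, the error being the SE here and below (edgeR adjusted p = 3.84e-21).

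MAGEA12, the partner of CSAG1 across their shared start region, ranged from 2.23 to 4.34 CPM in WT with a median of 2.97, and from 61.3 to 85.4 CPM in CD47- cells with a median of 72.7. Its log2 fold change was 4.56 ± 0.11 (edgeR adjusted p = 1.39e-18). No library of one line reached the other. MAGEA2 ranged from 1.44 to 3.79 CPM in WT (median 2.98) and from 46.8 to 67.1 CPM in CD47- cells (median 58.8), with a log2 fold change of 4.32 ± 0.15 (edgeR adjusted p = 4.24e-16). MAGEA2B, its copy, ranged from 0 to 1.63 CPM in WT (median 0.320) and from 10.7 to 22.2 CPM in CD47- cells (median 17.0). Every read-length stretch of the leading isoform of either copy was also found in the other, so the division of counts between them is uncertain. Summed, the copies were at 3.39 CPM in WT against 73.6 in CD47- cells, and the log2 fold change was 4.44 ± 0.10 (edgeR adjusted p = 7.53e-19).

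MAGEA10 was nearly silent in WT cells, with 0 to 12 counts per library, and reached 104 to 157 counts in CD47- cells. In CPM it ranged from 0 to 0.504 in WT (median 0.185) and from 4.58 to 6.17 in CD47- cells (median 5.32), with a log2 fold change of 4.72 ± 0.27 (edgeR adjusted p = 1.85e-12). MAGEA4, one of the MAGE antigens used as a target of engineered T cells, ranged from 1.66 to 6.23 CPM in WT (median 4.29) and from 9.76 to 24.8 CPM in CD47- cells (median 16.2). Its log2 fold change was 1.99 ± 0.21 (edgeR adjusted p = 5.92e-08), and its ranges stayed apart.

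MAGEA3, whose protein binds the ubiquitin ligase TRIM28, ranged from 0.293 to 0.889 CPM in WT (median 0.595) and from 1.36 to 2.65 CPM in CD47- cells (median 2.11), with a log2 fold change of 1.72 ± 0.19 (edgeR adjusted p = 1.51e-07). Its close copy MAGEA6 ranged from 0.287 to 0.960 CPM in WT (median 0.594) and from 0.953 to 2.12 CPM in CD47- cells (median 1.40), so that the lowest CD47- library fell within the WT range. The log2 fold change of MAGEA6 was 1.28 ± 0.21 (edgeR adjusted p = 4.15e-05). MAGEA3 and MAGEA6 shared 34.4% of read-length stretches and had identical promoters of 300 bases. Summed, the copies ranged from 0.893 to 1.59 CPM in WT and from 2.49 to 4.30 CPM in CD47- cells, without overlap. The log2 fold change of the sum was 1.52 ± 0.14 (edgeR adjusted p = 1.01e-08).

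The other 7 MAGEA genes were not tested. MAGEA1 had 84 counts summed over WT and 83 over CD47- libraries and was not called without a filter (log2 fold change -0.06 ± 0.33, edgeR adjusted p = 0.926). MAGEA5 had 53.9 and 121 counts, the readthrough MAGEA10-MAGEA5 had 27.1 and 80.5, the antisense RNA MAGEA4-AS1 had 30 and 90, MAGEA11 had 4 and 10, and MAGEA8 had 4 and 2. MAGEA9 was at 0 in all 10 WT libraries and had 52.2 counts in CD47- cells, against 28369 for MAGEA9B. The copies shared 88.5% of read-length stretches and had identical promoters, so the division of counts between them is uncertain, and 99.8% of their counts in CD47- cells had been given to MAGEA9B. The strand setting of the counting was not given in the sources used here, so MAGEA4-AS1 and MAGEA4, which overlap, may share reads.

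CSAG genes, named chondrosarcoma-associated genes, lie among the MAGEA genes. The 4 summed to 1.77 CPM in WT (SD 0.300, n = 10) against 30.6 in CD47- cells (SD 3.01, n = 10), and all 4 were called higher. CSAG1 ranged from 0.571 to 1.37 CPM in WT (median 0.961) and from 10.9 to 19.0 CPM in CD47- cells (median 18.1). Its log2 fold change was 4.12 ± 0.15 (edgeR adjusted p = 7.18e-16), and the lowest CD47- library was far above the highest WT library. CSAG2 ranged from 0.0444 to 0.765 CPM in WT (median 0.326) and from 2.70 to 8.41 CPM in CD47- cells (median 6.88), with a log2 fold change of 3.93 ± 0.31. CSAG3 ranged from 0 to 0.835 CPM in WT (median 0.323) and from 3.88 to 9.29 CPM in CD47- cells (median 5.76), with a log2 fold change of 4.16 ± 0.33. CSAG2 and CSAG3 shared 81.8% and 81.3% of their read-length stretches with each other, and summed they were at 0.745 CPM in WT against 12.4 in CD47- cells. In the 12 libraries with CD3+CD28 the log2 fold change was 3.51 for CSAG2 and 4.83 for CSAG3, and in the 8 without it 4.73 and 3.45. The pseudogene CSAG4 had 0 to 4 counts in each WT library and 21.4 to 37.3 in each CD47- library, which in CPM was a median of 0.0471 and 1.02 and a log2 fold change of 4.18 ± 0.37. An annotated CSAG4 entry overlaps MAGEA12 on the same strand, so CSAG4 and MAGEA12 may share reads. The largest adjusted p of CSAG2, CSAG3 and CSAG4 was 4.18e-09 (edgeR).

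MAGEB genes lie on the short arm of the X chromosome. The 7 summed to 0.805 CPM in WT (SD 0.264, n = 10) against 45.3 in CD47- cells (SD 5.20, n = 10). In single libraries MAGEB1 had 1 to 7 counts in WT and 683 to 1164 in CD47- cells, or 0.0420 to 0.351 CPM (median 0.112) against 35.4 to 49.5 CPM (median 41.8). Its log2 fold change, 8.24 ± 0.22 (edgeR adjusted p = 3.55e-18), was the largest of the 19 tested genes.

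MAGEB2 ranged from 0.0420 to 0.264 CPM in WT (median 0.208) and from 1.14 to 2.41 CPM in CD47- cells (median 1.51), with a log2 fold change of 3.22 ± 0.25 (edgeR adjusted p = 3.44e-10). MAGEB6 was at the floor in WT, with 5 counts in all 10 libraries, and had 11 to 41 counts per CD47- library. Its CPM in CD47- cells ranged from 0.438 to 1.38 (median 0.826), and the fitted log2 fold change was 4.97 ± 0.43 (edgeR adjusted p = 2.70e-09), against 4.34 with limma. The ranges of both genes stayed apart. MAGEB18, the nearest tested neighbor of MAGEB6, ranged from 0.0979 to 0.803 CPM in WT (median 0.434) and from 0.166 to 1.06 CPM in CD47- cells (median 0.361), and its log2 fold change was 0.11 ± 0.37 (edgeR adjusted p = 0.842). It was higher in CD47- cells in 6 of 10 pairs with the same treatment and time, whereas each of the 17 called genes was higher in 10 of 10. Among untested MAGEB genes, MAGEB17 had 1 count in WT and 84 in CD47- cells, MAGEB3 had 6 and 49, and MAGEB4, which overlaps MAGEB1 on the same strand, had 5 and 17.

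PRAME ranged from 39.4 to 50.1 CPM in WT (median 44.4) and from 133 to 233 CPM in CD47- cells (median 182). The highest WT library was far below the lowest CD47- library, and the log2 fold change was 2.10 ± 0.09 (edgeR adjusted p = 1.06e-14). It was higher by 1.62 to 2.35 on the log2 scale in the 10 matched pairs.

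The PAGE family held genes of either direction. PAGE5 ranged from 1.86 to 2.77 CPM in WT (median 2.47) and from 4.67 to 7.97 CPM in CD47- cells (median 7.20), with a log2 fold change of 1.56 ± 0.11 (edgeR adjusted p = 5.56e-11). PAGE4, known from prostate, had 150 counts in WT and 53 in CD47- cells. PAGE2B had 10.0 and 48 counts, PAGE2 had 1.03 and 9, and PAGE1 had 8 and 6. PAGE5 was thus the only PAGE gene detected throughout either line.

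SSX2IP ranged from 59.0 to 87.3 CPM in WT (median 81.0) and from 32.3 to 53.9 CPM in CD47- cells (median 47.8). It fell by 0.76 (log2, SE 0.11; edgeR adjusted p = 4.22e-06) and was lower in CD47- cells in 10 of 10 pairs. The SSX genes themselves were low in both lines. Their 8 members, pseudogenes included, summed to 0.606 CPM in WT (SD 0.181, n = 10) against 0.394 in CD47- cells (SD 0.185, n = 10), which overlapped. SSX1, the fusion partner of SS18 in synovial sarcoma, had 47.9 and 37 counts in WT and CD47- cells, SSX6P had 39 and 18, and SSX2B had 29.4 and 9. The remaining 5, SSX2, SSX4, SSX4B, SSX5 and SSX8P, had at most 4 counts in any library.

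**Figure D3:**
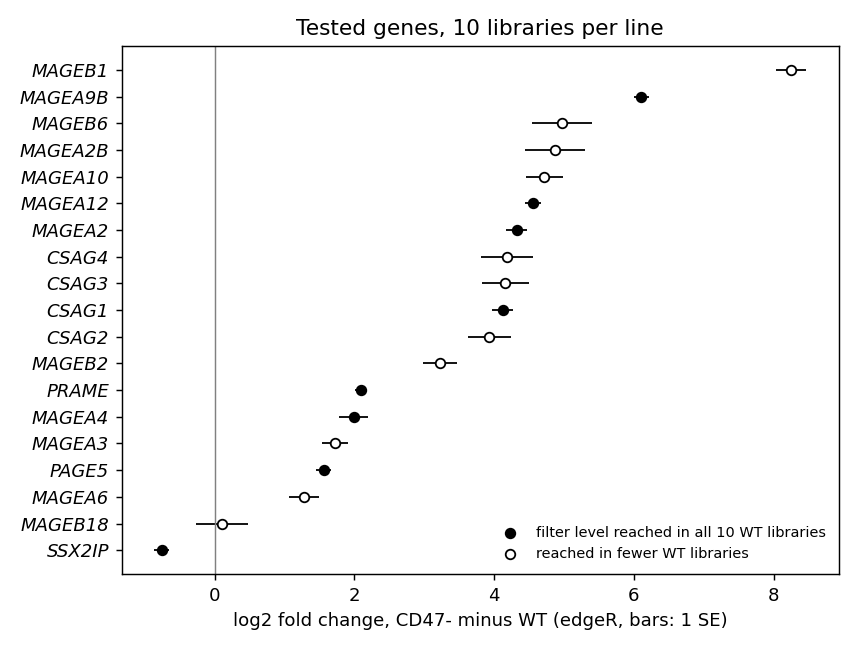
Log2 fold change of CD47- over WT cells with 1 SE for the 19 tested genes (edgeR, 10 libraries per line). Filled points reached the filter level in all 10 WT libraries and open points in fewer; the values run from -0.76 for SSX2IP to 8.24 for MAGEB1.

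The 45 untested genes had a median of 29 counts summed over 20 libraries, and none had over 34.6 in a single library. To place them, the line comparison was repeated without a filter, over 41107 genes. It called 30 of the 64 higher in CD47- cells, against 10% of all genes, and 4 lower, against 8.82%, while 30 were not called. The 64 genes had been chosen by a minimum of summed counts, which was not asked of all genes here, and low counts limit calls. The gaps to all genes thus allow no conclusion. Besides the 17 above, the higher genes were CT45A1, CT45A3, CT45A10, GAGE1, MAGEA4-AS1, MAGEA5, MAGEA9, MAGEB3, MAGEB17, MAGEC1, MAGEC2, PAGE2 and PAGE2B. Besides SSX2IP, the lower genes were GAGE2A, MAGEC3 and PAGE4.

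GAGE2A was the only gene other than SSX2IP that was higher in WT cells without overlap. Its counts ran from 6.70 to 27.9 in single WT libraries and from 0 to 5.40 in CD47- libraries, with 152 and 23.3 in sum. Its ranges did not overlap in CPM, and its log2 fold change without a filter was -2.70 ± 0.45 (edgeR adjusted p = 3.67e-05). The GAGE genes are near-identical tandem copies, however, and the promoters of GAGE1, GAGE12E, GAGE12F, GAGE12H, GAGE12J and GAGE2A were identical over 300 bases. GAGE1 pointed the other way, with 4.37 counts in WT and 41.5 in CD47- cells. Summed over all 13 GAGE symbols there were 207 counts in WT and 147 in CD47- cells, and that sum was not called (log2 fold change -0.51 ± 0.26, edgeR adjusted p = 0.124). The other 7 GAGE genes, GAGE12E, GAGE12F, GAGE12G, GAGE12H, GAGE12J, GAGE13 and GAGE2E, had 67.4 or fewer counts each.

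PAGE4 counts ran from 7 to 29 in single WT libraries and from 2 to 9 in CD47- libraries, and its log2 fold change without a filter was -1.55 ± 0.33 (edgeR adjusted p = 7.68e-04). Its ranges overlapped in CPM, although it was lower in CD47- cells in 10 of 10 pairs. The MAGEC genes, on the long arm of the X chromosome, split. MAGEC3 had 24 counts in WT and 1 in CD47- cells, MAGEC1 had 4 and 46, and MAGEC2 had 3 and 26. Their summed CPM, 0.130 in WT (SD 0.0850, n = 10) and 0.294 in CD47- cells (SD 0.170, n = 10), overlapped.

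The CT45A genes are tandem copies as well. CT45A3 had 22.3 counts in WT and 164 in CD47- cells, and its ranges did not overlap. CT45A10 had 28.8 and 92.0 counts, CT45A1 had 6 and 61.5, and CT45A11P, a pseudogene, had 40 and 47.0. CT45A2, CT45A5, CT45A8 and CT45A9 had between 18.0 and 38.1 counts each over both lines. Summed to 1 feature, the 10 CT45A symbols passed the filter and were higher in CD47- cells, at 0.559 CPM in WT (SD 0.251, n = 10) against 1.83 in CD47- cells (SD 0.563, n = 10), with a log2 fold change of 1.68 ± 0.26 (edgeR adjusted p = 1.92e-05). XAGE1A and XAGE1B, whose leading isoforms share every read-length stretch, had 11 counts together in WT and 45 in CD47- cells, and CTAG2, a close relative of the NY-ESO-1 gene, had 12 and 4. Neither was called without a filter.

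**Figure D4:**
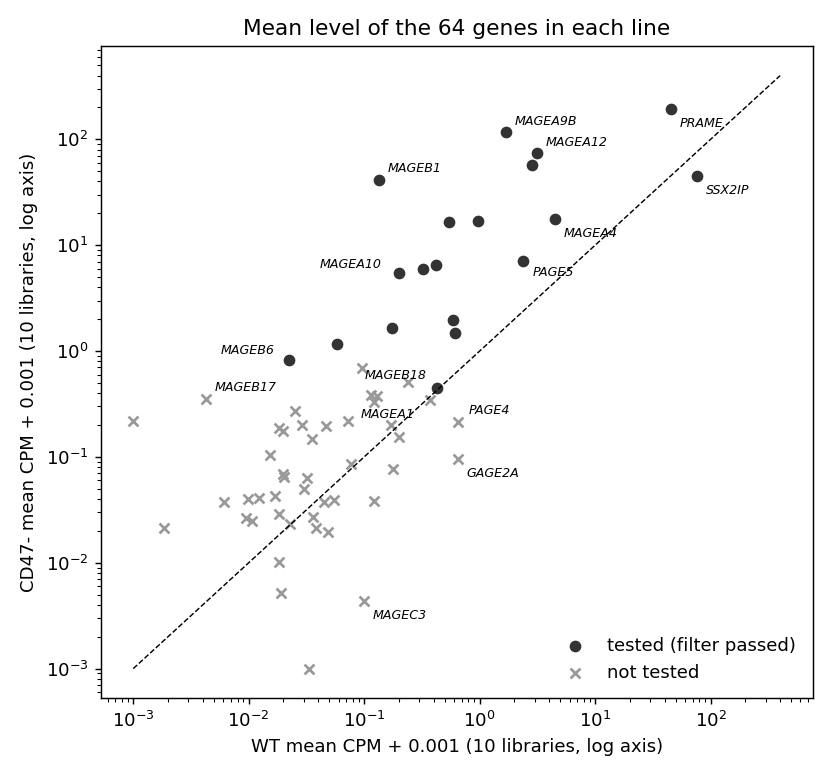
Mean CPM in WT (horizontal) and CD47- cells (vertical) for the 64 genes, on log axes with 0.001 added; the dashed line marks equal levels. Tested genes (circles) lie mostly above the line, and GAGE2A, PAGE4 and MAGEC3 lie below it among the untested (crosses).

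To order the genes by level, values were corrected for length, as TPM, a length-corrected share of all transcripts computed from isoform counts and transcript lengths. In WT cells 9 of the 64 genes had a mean of 1 TPM or more, and in CD47- cells 16. The WT order was SSX2IP at 19.0 TPM, PRAME at 18.4, PAGE5 at 3.89, MAGEA4 at 2.18, MAGEA12 at 1.67, MAGEA2 at 1.40, CSAG1 at 1.32, PAGE4 at 1.15 and GAGE2A at 1.04. The library ranges of PRAME and PAGE5, and of PAGE5 and MAGEA4, did not overlap, while all other neighbors in the order did. MAGEA9B stood at 0.889 TPM in WT cells. In CD47- cells it was second, at 72.6 TPM (SD 4.74, n = 10), after PRAME at 95.4 TPM (SD 15.5, n = 10), and these overlapped. MAGEA12 followed at 46.7 TPM, MAGEA2 at 33.0, CSAG1 at 27.1, MAGEB1 at 25.6, SSX2IP at 14.2, PAGE5 at 13.6, MAGEA2B at 11.8 and MAGEA4 at 9.89. Gaps between neighbors lay below MAGEA9B and below MAGEB1. CSAG2 and CSAG3 were at 8.53 and 7.83 TPM, and a gap separated them from MAGEA10, CSAG4, MAGEA3 and MAGEB2, which were between 1.10 and 2.41 TPM.

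The time courses asked whether these genes moved while the cells were plated. At 6 h against 1 h, 5 of the 19 tested genes changed in WT cells, against 50.5% of all genes, and 4 changed in CD47- cells, against 53%. Both shares were below that of all genes. However, 11 of the 19 genes reached the filter level in fewer than 10 WT libraries, and low counts limit calls. No conclusion is drawn from the gap in WT cells. MAGEA4 was called higher at 6 h in both lines. In WT cells it was at 3.03 CPM at 1 h (SD 1.08, n = 4), 4.69 CPM at 3 h (SD 0.725, n = 3) and 6.09 CPM at 6 h (SD 0.215, n = 3), and in CD47- cells at 14.8 CPM (SD 0.940, n = 4), 15.8 CPM (SD 5.56, n = 3) and 23.5 CPM (SD 1.63, n = 3). The change from 1 h to 6 h was 0.82 ± 0.22 on the log2 scale in WT (edgeR adjusted p = 0.00740) and 0.68 ± 0.19 in CD47- cells (edgeR adjusted p = 0.00779). The call was lost in WT without the library of CD3+CD28 and TSP1 at 1 h, and in CD47- cells without that of CD3+CD28 at 1 h or of CD3+CD28 and TSP1 at 6 h.

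In WT cells MAGEA12 and MAGEA9B also rose at 6 h, by 0.62 ± 0.17 (edgeR adjusted p = 0.00750) and 0.48 ± 0.16 (edgeR adjusted p = 0.0216) on the log2 scale. Both calls were lost without the WT library of CD3+CD28 and TSP1 at 1 h, of the same treatment at 6 h or of TSP1 at 6 h, and that of MAGEA12 also without TSP1 at 1 h. MAGEA9B was not called with DESeq2 (adjusted p = 0.0502) or limma (adjusted p = 0.0796). CSAG4 was called as well, but on few counts, namely 1 over the 4 libraries at 1 h and 1 to 4 in each library at 6 h. Its call was lost without the WT library of CD3+CD28 and TSP1 at 1 h or at 6 h, or of TSP1 at 1 h. In CD47- cells PRAME stood at 223 CPM at 1 h (SD 10.4, n = 4) and decreased to 181 CPM by 6 h (SD 0.468, n = 3), and MAGEB18 went from 0.753 (SD 0.227, n = 4) to 0.200 (SD 0.0223, n = 3). PRAME fell by 0.31 (log2, SE 0.10; edgeR adjusted p = 0.0154) and MAGEB18 fell by 1.88 (SE 0.47, edgeR adjusted p = 0.00381). MAGEB18 ranged from 0.176 to 0.220 CPM at 6 h in CD47- cells, near the level of 3 counts, so its change rests on few counts. The call of PRAME at 6 h was lost with limma (adjusted p = 0.0740) and without the CD47- library of CD3+CD28 and TSP1 at 1 h, of CD3+CD28 at 6 h or of TSP1 at 6 h. SSX2IP was lower at 6 h in both lines, by log2 changes of -0.30 ± 0.08 in WT (edgeR adjusted p = 0.00451) and -0.60 ± 0.08 in CD47- cells (edgeR adjusted p = 2.16e-05).

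At 3 h against 1 h, CSAG4 alone was called in WT cells, against 34.3% of all genes, and PRAME and MAGEB18 in CD47- cells, against 38%. PRAME fell by 0.44 (log2, SE 0.10; edgeR adjusted p = 0.00294). The call of MAGEB18 at 3 h was lost with DESeq2 and without a filter. Leaving out the CD47- library of CD3+CD28 and TSP1 at 1 h or of TSP1 at 1 h also lost it. So did leaving out that of CD3+CD28 at 3 h or of TSP1 at 3 h. The call of CSAG4 was lost with DESeq2 (adjusted p = 0.0530) and without, among others, the WT library of TSP1 at 3 h. Without the WT library of CD3+CD28 and TSP1 at 1 h, SSX2IP remained the only gene called at 6 h in WT cells, and without the WT library of CD3+CD28 at 6 h, 9 were called. Without the CD47- library of CD3+CD28 and TSP1 at 3 h, 5 genes were called at 3 h in CD47- cells and 3 in WT cells, and MAGEA12, MAGEA2 and SSX2IP were called for a difference between the lines at 6 h. The test of the difference between the lines in the change from 1 h to 6 h called 0 of the 19 genes, against 16.6% of all genes, with 5 at an unadjusted p under 0.05 and with 1 gene each by DESeq2 and limma. The smallest p was that of CSAG4 (edgeR adjusted p = 0.0613).

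**Figure D5:**
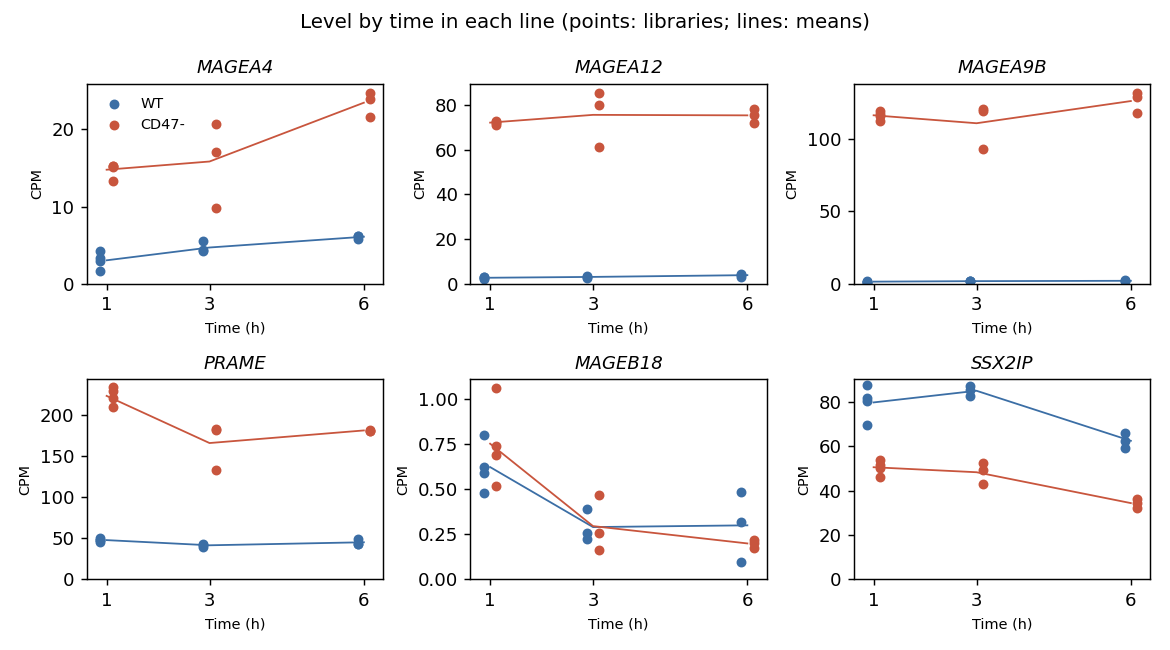
CPM (vertical, linear from 0) at 1, 3 and 6 h (horizontal) for 6 genes in WT and CD47- cells; points are libraries and lines join the means. MAGEA4 ends higher at 6 h in both lines, PRAME is highest at 1 h in CD47- cells, and SSX2IP is lowest at 6 h in both lines.

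Activation and TSP1 were followed in the same model. For CD3+CD28+TSP1 against TSP1 alone, matched at 3 times, none of the 19 genes was called in either line by edgeR, DESeq2 or limma. All genes gave 0.0919% in WT and 0% in CD47- cells. At an unadjusted p under 0.05 there was 1 gene in each line, CSAG3 in WT and MAGEA9B in CD47- cells, the latter with a log2 change of -0.18. For the difference between the lines in this contrast 0 genes were called and 4 were below that unadjusted p. For CD3+CD28 against untreated cells, CD3+CD28+TSP1 against CD3+CD28, and TSP1 against untreated cells, 0 of the 19 genes were called in either line by these 3 tools, as were 0 of all genes by edgeR. In WT cells 2 genes were below an unadjusted p of 0.05 in each of these contrasts, and in CD47- cells 0. MAGEA4 had the smallest p for activation of WT cells, with a log2 change of 1.22 (edgeR adjusted p = 0.565). The untreated condition had 1 library per line. MAGEA4 was called for CD3+CD28 against untreated WT cells without a filter and on leaving out the CD47- library of CD3+CD28 and TSP1 at 3 h.

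Related genes were examined from lists, which lie outside these families except for the readthrough MAGEA10-MAGEA5 in the list of other cancer-testis genes. Of 12 type II and other MAGE genes, which are expressed in many tissues, 11 were tested, 4 were higher and 2 lower, beside 19.8% higher and 20.6% lower of all genes tested, with a median log2 fold change of 0.17. TRO and MAGED4B were higher by 0.67 ± 0.14 and 0.98 ± 0.23 on the log2 scale, although MAGED4, the near-identical copy of MAGED4B, was not called (0.25 ± 0.27, edgeR adjusted p = 0.491) and the division of counts between them is uncertain, and NSMCE3, a subunit of the SMC5/6 complex, was lower, with a log2 fold change of -0.53 ± 0.09. Of 66 other cancer-testis and germ cell genes, 64 were in the table, 12 were tested, 4 were higher and 3 lower, beside the same 19.8% and 20.6% of all genes, with a median of 0.22. SYCP2, a protein of the synaptonemal complex, went from 123 to 31.6 CPM between WT and CD47- cells, and RHOXF2B from 0.402 to 1.13 CPM. The related RHOXF2, not tested, was at 0.166 CPM in WT against 0.192 in CD47- cells. How counts divide between RHOXF2 and RHOXF2B was not examined. The germ cell markers SYCP1 and TEX101 had 0 and 1 counts in all, and BRDT had 14 in WT and 3 in CD47- cells. DDX4 had 42 and 35 counts, and DAZL had 34 and 122. SYCP3, the only germ cell marker that was tested, had 224 and 120 counts. It was lower in CD47- cells, with a log2 fold change of -0.93 ± 0.25 (edgeR adjusted p = 0.00517).

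Among 20 enzymes and readers of DNA and histone methylation and histone deacetylases, all tested, 3 were higher and 6 lower, where all genes gave 19.8% and 20.6%, with a median log2 fold change of -0.03. The maintenance methyltransferase DNMT1 was at 186 CPM in WT against 179 in CD47- cells and was not called, its partner UHRF1 fell by 0.25 (log2, SE 0.08; edgeR adjusted p = 0.0202), and DNMT3B rose by 0.71 ± 0.16 (edgeR adjusted p = 0.00106). Among enzymes that methylate histone H3, SUV39H1, SUV39H2 and EZH2 fell by 0.44, 0.57 and 0.70 (log2), EHMT1 rose by 0.29, and SETDB1 and EHMT2 were not called. Of 15 known partners of MAGE, PRAME and SSX proteins, 3 were higher, 2 lower and 10 not called, where all genes gave 19.8% and 20.6%, with a median of -0.04. TRIM28 was at 204 CPM in WT against 198 in CD47- cells and was not called, and RARA, which PRAME binds, rose by 0.93 ± 0.23 (edgeR adjusted p = 0.00256). What these levels contribute to those of the cancer-testis genes was not tested.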

How the data were processed

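Libraries of polyadenylated RNA were sequenced as paired reads from WT and CD47- Jurkat cells. The deposited values were expected counts that the authors had estimated per gene and isoform with RSEM 1.3.3 on GRCh38 (GENCODE v36), after Cutadapt 1.18 and STAR 2.4.2a; the strand setting was not given in the sources used here. In the gene and isoform tables, 2 columns each belonged to no sample and were not used. Expected counts were rounded to whole numbers for tests. Total counts per library ran from about 16107900 to 31737600, and 3 counts equalled 0.0979 to 0.156 CPM, so lower levels were limited by counting.

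Genes were filtered by line with filterByExpr (minimum count 10, minimum total 15), scaled by TMM and tested between the lines with edgeR 4.0.16 (R 4.3.3), with Benjamini-Hochberg adjustment at 0.05. Responses came from a model with terms for line and treatment and for 3 h and 6 h within each line. TPM used GENCODE v44 transcript lengths, and copies were compared by shared stretches of the read length. The alternatives were DESeq2 1.42.0, limma 3.58.1, other scaling and filters, a time term, a block for matched pairs, subsets of libraries, summed copies and leaving out each library. Scripts were tested on simulated data.

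All genes of the families were named, with values in full for those tested. The families, related gene lists and tests were chosen with earlier results of these data known. The same number marks the same treatment and time in each line. Deviations of all 10 numbered pairs correlated (0.115 to 0.452), but 1 of 10 libraries correlated best with its own partner.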

Additional observations from a re-analysis of the deposited data

Results flagged for a closer look

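The CD47- library with CD3+CD28 and TSP1 at 3 h stood apart from the other 9 of its line in 4 genes. In it CSAG1 was at 10.9 CPM, against 15.8 to 19.0 CPM in the others. MAGEA9B was at 93.0 CPM, against 112.3 to 131.5 CPM. PAGE5 was at 4.67 CPM, against 6.72 to 7.97 CPM. PRAME was at 132.7 CPM, against 180.5 to 233 CPM. In each case the gap to the nearest library, divided by the whole range of the line, exceeded Dixon's critical value for 10 samples. Chance flags about 1 in 20 groups, and 24 groups were examined. This library also had the fewest counts, about 16107900, and the largest TMM factor, 1.20, and the part of these in the low values was not tested.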

How the results depend on the processing

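Between the lines, the same 17 genes were called higher in CD47- cells and SSX2IP lower under every way of leaving out 1 library (17 to 17 and 1 to 1 genes, with 6307 to 6855 of all genes called). A block for the matched pairs called 8957 genes in all, with 17 of these genes higher and 1 lower, and changed no call of them. Without a filter 30 were higher and 4 lower, and with a minimum of 1 CPM in every library 7 were tested and 6 were higher. In the 12 libraries with CD3+CD28 the lines differed in 4067 genes and in the 8 libraries without it in 2706, where MAGEA6 was not called (log2 fold change 1.11, edgeR adjusted p = 0.0612). With limma the log2 fold change of MAGEA2B was 5.70, against 4.87 with edgeR. MAGEB18, never called, changed sign with limma (-0.18), in the 8 libraries (-0.15) and on leaving out single libraries (-0.12 to 0.25).

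The time responses depended more on the setting, and the causes were not tested. Called genes numbered 1 to 9 at 6 h in WT, 3 to 5 at 6 h in CD47-, 0 to 3 at 3 h in WT, 1 to 5 at 3 h in CD47- and 0 to 3 for the difference between the lines at 6 h on leaving out single libraries, and 0 to 1 for CD3+CD28 against untreated WT cells. Without a filter, 8 genes were called at 6 h in each line, 2 at 3 h in WT, 5 for the difference at 6 h, 1 for CD3+CD28 against untreated WT cells and 1 for the difference between the lines in CD3+CD28+TSP1 against TSP1. DESeq2 called 0 at 3 h in WT, 1 at 3 h in CD47- and 1 for the difference, and limma 2, 4 and 1. Leaving out the single untreated library of a line gave no value for contrasts with untreated cells of that line. Calls of genes at 3 counts or fewer in each library of a line, such as MAGEB6 in WT, rest on few counts.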
